A study of Mus musculus with 2 samples.

Results

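Secreted Wnt ligands, their cell surface receptors and the extracellular proteins that enhance or block them were compared between fast and slow muscle fibres of the mouse. The members were all mouse genes named Wnt, Fzd, Rspo, Sfrp or Dkk with a number, together with Lgr4, Lgr5, Lgr6, Lrp5, Lrp6, Wif1, Frzb, Znrf3, Rnf43 and Axin2. They came to 51 of the 23458 genes with a probe, and each gene was read by its brightest probe over both arrays. Every member had a probe. RNA was taken from fibres pooled from 8 male mice, 6 to 8 weeks old, all heterozygous for a GFP-tagged Myh7 allele (GFP-Myh7, G/+), which marks fibres that make slow myosin. The fast group was 1 pool of 4447 fibres without GFP from the extensor digitorum longus (EDL), and the slow group was 1 pool of 1659 fibres with GFP from the soleus. Fibre type and muscle of origin therefore cannot be told apart. The slow sample is given the EDL in its tissue label but the soleus in its source label and in the treatment protocol. With 1 array per group there was no replicate and no test, so a gene is called here where the pools were at least 2-fold apart.

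Wnt ligands are secreted lipid-modified glycoproteins that bind Frizzled receptors. Together with the co-receptors Lrp5 and Lrp6, this binding stabilises beta-catenin, which then acts with TCF/LEF factors on target genes, while other Wnt signals act through cell polarity and calcium. R-spondins bind Lgr receptors and hold back Znrf3 and Rnf43, a related set of ubiquitin ligases that remove Frizzleds from the surface. Secreted Frizzled-related proteins and Wif1 bind the ligands, and some Dickkopf proteins, Dkk2 among them, act on the co-receptors. In skeletal muscle the pathway is known for its parts in myogenesis, in satellite cells and at the neuromuscular junction.

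Levels are log2 intensities relative to the 75th percentile of the array, and differences are slow minus fast. Of 59305 gene spots none was saturated, and the share well above background was 52.3% for the fast pool and 50.9% for the slow pool. Fibre markers followed the labels: all 7 slow markers, among them Myh7 (8.08), were at least 2-fold higher in the slow pool, and all 10 fast markers, among them Myh4 (-11.54), in the fast pool. Probes spotted repeatedly (288 of them) gave differences whose SD between spots was 0.045 at the median. The scanner software's own error of a difference had a median of 0.21 over the members measured in both pools and reached 0.35 for Fzd2. Neither error covers animals, dissection or labelling.

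Of the 51 members, 30 (58.8%) were well above background in at least 1 pool, against 62.4% of all genes. Of these, 26 were measured in both pools, 2 (Wnt6 and Rnf43) were above background in the fast pool only, 2 (Dkk2 and Fzd6) in the slow pool only, and 21 in neither. Called in slow fibres were 8 members (26.7% of the 30), where 10.7% of all genes above background were called in that direction. Called in fast fibres were another 8 members (26.7%), against 14.3% of all genes. The median difference was -0.28 over the 26 members measured in both pools and 0.05 over all 12846 such genes, and the members ran from -4.89 to 6.31. Scaling to spike-in controls adds 0.43 to every difference and moved the median of all genes to 0.48 and that of the members to 0.15. Under it 10 of the 30 members were called in slow and 5 in fast fibres. Over the 14644 genes above background the split went from 1570 slow and 2099 fast to 3173 and 1303. Many members were dim: 11 of the 26 lay in quartile 1 of mean level, where 11.5% of genes were called in slow fibres and 18.6% in fast fibres.

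**Figure D1:**
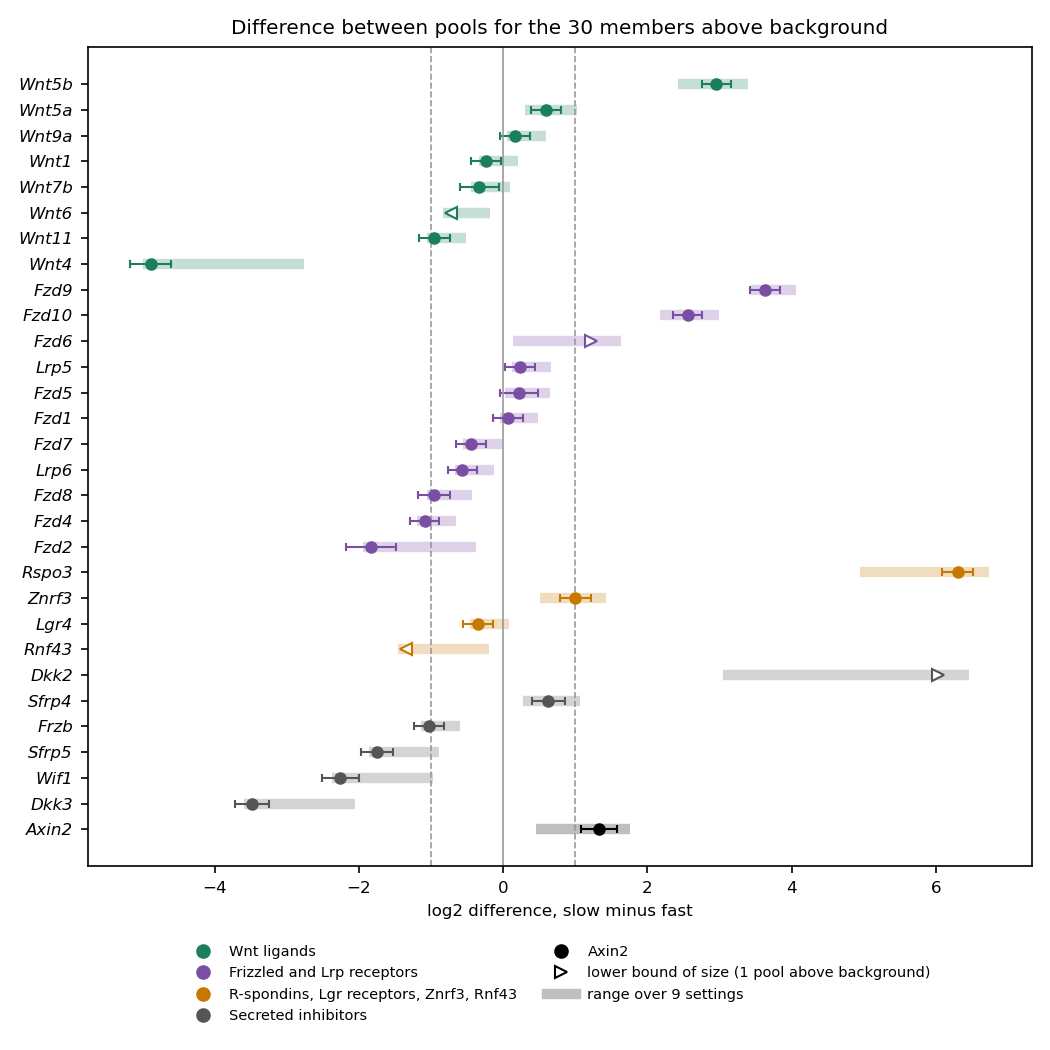
Log2 difference, slow minus fast, of the 30 members above background, ordered by role. Points are measured differences with the software error, pale bars span 9 processing settings, and dashed lines mark 2-fold. Open arrowheads are members above background in 1 pool, bounds for Dkk2 and Wnt6 and differences from a dim value for Fzd6 and Rnf43. Rspo3 (6.31) and the bound of Dkk2 (6.03) lie farthest to the right, and Wnt4 (-4.89) and Dkk3 (-3.49) farthest to the left.

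Of the 16 called members, 7 were past 2-fold in the same direction under all 9 settings of scaling and background correction. They were Rspo3, Dkk2, Fzd9, Wnt5b and Fzd10 in slow fibres and Wnt4 and Dkk3 in fast fibres. The other 9 fell within 2-fold under at least 1 setting: all 9 did under normexp background correction with quantile normalization, and 3 of the 16 did under spike-in scaling. None of the 16 changed sign, while Fzd1, Lgr4, Wnt1 and Wnt7b, which were not called, did. These settings do not change the probe, and Rspo3, Dkk2, Fzd9, Fzd10 and Wnt4 have only 1 probe each.

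The stretch of 250 bases upstream of the start site is shown for 5 of the 7 members past 2-fold in every setting, from RefSeq promoters of build GRCm38.p6. Rspo3 and Dkk3 had no promoter entry. Dkk2 lies at chr3:132085042-132085291 (plus strand), Fzd9 at chr5:135251048-135251297 (minus), Fzd10 at chr5:128600856-128601105 (plus), Wnt4 at chr4:137277385-137277634 (plus), and the outermost of 3 listed Wnt5b starts at chr6:119544348-119544597 (minus). Capitals mark GGAAA, the core letters bound by NFAT factors, and GGGCGG, the GC box, each searched on both strands.
Dkk2: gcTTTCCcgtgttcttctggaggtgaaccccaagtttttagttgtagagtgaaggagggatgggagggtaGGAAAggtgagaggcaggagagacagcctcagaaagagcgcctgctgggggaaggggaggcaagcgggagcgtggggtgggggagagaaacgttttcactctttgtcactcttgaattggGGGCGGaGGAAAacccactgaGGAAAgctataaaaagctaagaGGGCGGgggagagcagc
Wnt5b: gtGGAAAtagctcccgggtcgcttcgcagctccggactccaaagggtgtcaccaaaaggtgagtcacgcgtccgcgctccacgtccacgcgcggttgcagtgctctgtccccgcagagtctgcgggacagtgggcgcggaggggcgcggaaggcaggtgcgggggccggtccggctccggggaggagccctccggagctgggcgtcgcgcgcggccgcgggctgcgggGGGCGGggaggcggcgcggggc
Fzd9: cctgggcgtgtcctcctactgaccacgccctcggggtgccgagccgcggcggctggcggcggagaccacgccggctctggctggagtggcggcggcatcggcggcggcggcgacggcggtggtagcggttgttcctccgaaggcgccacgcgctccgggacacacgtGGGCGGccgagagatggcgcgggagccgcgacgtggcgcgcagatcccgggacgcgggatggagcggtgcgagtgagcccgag
Fzd10: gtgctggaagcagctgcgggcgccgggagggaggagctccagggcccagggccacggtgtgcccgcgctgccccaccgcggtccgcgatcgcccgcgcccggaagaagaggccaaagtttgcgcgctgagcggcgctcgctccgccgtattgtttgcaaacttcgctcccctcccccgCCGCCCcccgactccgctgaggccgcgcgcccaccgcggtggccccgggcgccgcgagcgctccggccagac
Wnt4: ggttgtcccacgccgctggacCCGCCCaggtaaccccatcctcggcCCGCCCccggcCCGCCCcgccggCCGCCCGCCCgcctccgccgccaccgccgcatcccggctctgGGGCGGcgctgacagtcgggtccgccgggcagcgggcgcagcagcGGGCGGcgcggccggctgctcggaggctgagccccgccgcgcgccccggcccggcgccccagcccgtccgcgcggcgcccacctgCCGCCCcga
The Dkk2 window held 4 GGAAA matches, 2 GC boxes and a TATAAA, the outermost Wnt5b window 1 GGAAA match and 1 GC box, and the Fzd9 and Fzd10 windows 1 GC box each with no GGAAA. The other Wnt5b windows each held 3 GGAAA matches. The Wnt4 window, with 85.2% G and C, held 8 GC boxes and no GGAAA. No base was shared by matches of these 2 motifs in the printed windows. Of all 32851 windows of this length, 55.6% held a GGAAA match, 32.7% a GC box and 12.4% a TATAAA, and the median G and C content was 52.4%. CTTTGA, the TCF/LEF letters, was absent from the windows of these 5 genes except the innermost of Wnt5b. Of the other called members with an entry, Frzb alone had a match, and 13.8% of all windows held one. A MEF2 motif was absent from the windows of all 11 called members with an entry, and 2.92% of all windows held it. These are matches of letters, not measured binding.

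**Figure D2:**
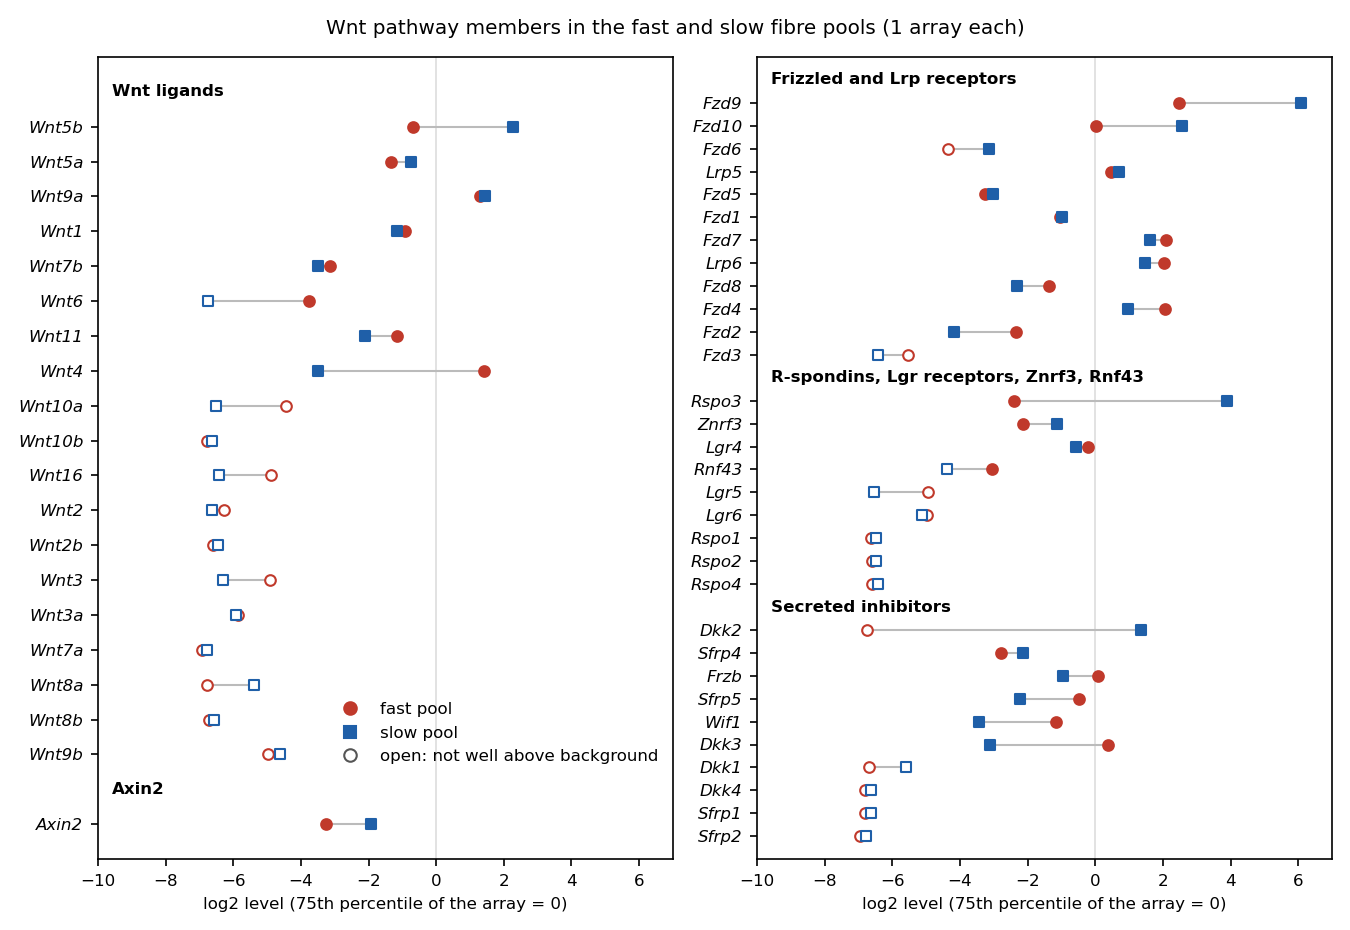
Log2 level of each of the 51 members in the fast pool (circles) and the slow pool (squares), by role, with open symbols for spots not well above background; levels compare pools within a gene and not genes with each other. Rspo3 goes from -2.41 in fast to 3.89 in slow fibres, and Wnt4 from 1.399 to -3.49.

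Among the 19 Wnt ligands, 8 were above background, of which Wnt5b was higher in slow fibres and Wnt4 in fast fibres, and the remaining 6 were not called. Wnt4, a ligand with parts in muscle development and at the synapse, stood at 1.399 in the fast pool and -3.49 in the slow pool, 29.6-fold apart with a software error of 0.28. In intensity units this was 481.7 against 17.5, where the lowest slow signal well above background was 8.81, so Wnt4 was bright in 1 pool and close to background in the other. Only 33 of the 12846 genes measured in both pools lay further toward fast fibres. Under normexp with quantile normalization the Wnt4 difference was -2.76.

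Wnt5b, a ligand that mostly signals without beta-catenin, stood at -0.67 in the fast pool and 2.28 in the slow pool, a difference of 2.96 or 7.77-fold. Its other probe, for a different transcript, gave 2.82, so both probes placed it higher in slow fibres. Its close relative Wnt5a was at -1.34 in fast and -0.74 in slow fibres, a difference of 0.59 that reached 1.02 only under spike-in scaling. The other Wnt5a probe was not well above background in either pool.

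Wnt11, which acts in convergent extension movements of the embryo, stood at -1.16 in fast and -2.11 in slow fibres. Its difference of -0.95 was just short of 2-fold, while its other probe gave -1.65 and the authors' table -1.06. Wnt9a was at 1.29 and 1.45 (0.16), Wnt1 at -0.92 and -1.15 (-0.23) and Wnt7b at -3.15 and -3.49 (-0.33), in fast and slow fibres respectively. Wnt1 and Wnt7b changed sign under spike-in scaling, and the differences of Wnt9a, Wnt1 and Wnt7b were close to their software error of 0.20 to 0.27. Wnt6, at 13.6 intensity units in fast fibres, was above background there alone and at least 1.652-fold higher, short of the 2-fold rule.

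The 11 ligands not well above background in either pool were Wnt2, Wnt2b, Wnt3, Wnt3a, Wnt7a, Wnt8a, Wnt8b, Wnt9b, Wnt10a, Wnt10b and Wnt16. In RefSeq gene order, 8 ligands lie as direct neighbours, Wnt6 with Wnt10a on chromosome 1, Wnt3a with Wnt9a and Wnt9b with Wnt3 on chromosome 11, and Wnt10b with Wnt1 on chromosome 15. Wnt6, Wnt9a and Wnt1 were above background, their neighbours were not, and neither Wnt9b nor Wnt3 was. With only 8 of all 19 ligands above background and no share taken over other neighbouring genes, no pattern is read from this.

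Of the 12 receptors, 11 were above background, of which 3 were called in slow fibres, 2 in fast fibres and 6 in neither direction. Fzd9, a Frizzled known from bone formation, stood at 2.47 in fast and 6.10 in slow fibres, 12.4-fold apart with a software error of 0.20. It was well above background on both arrays, at 1010 and 13426 intensity units, and its difference stayed between 3.44 and 4.06 over the 9 settings. Fzd10 stood at 0.02 in fast and 2.58 in slow fibres, 5.89-fold apart, with a range of 2.18 to 2.99 over settings. Of all genes measured in both pools, 99.4% had a lower difference than Fzd9 and 98.4% a lower one than Fzd10. Fzd6, a Frizzled of planar polarity, was above background in the slow pool only, at 22.02 intensity units. It was 2.32-fold above its dim fast value of 8.86 units. This is a measured difference with a software error of 0.385 and not a lower limit. Under normexp with the 75th percentile the Fzd6 difference came to 0.14.

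Fzd2 and Fzd4 were the receptors called in fast fibres. Fzd2 stood at -2.34 in fast and -4.17 in slow fibres, 3.56-fold apart, and at -0.38 under normexp with quantile normalization. Fzd4, the receptor for Norrin in endothelium, stood at 2.06 and 0.98, 2.12-fold apart, and at -0.66 under spike-in scaling. Fzd8 stood at -1.37 and -2.32 (-0.95), just short of 2-fold, and at -1.06 in the authors' table. Fzd7, the receptor for Wnt7a on satellite cells, stood at 2.08 and 1.63 (-0.45), Fzd1 at -1.05 and -0.98 (0.06, and -0.05 in the authors' table) and Fzd5 at -3.25 and -3.03 (0.22). The other Fzd5 probe, above background in fast fibres only, pointed the other way with a bound of -0.90, the sole member whose probes above background disagreed in direction. The co-receptors were within 2-fold, with Lrp5 at 0.46 and 0.69 (0.23) and Lrp6 at 2.02 and 1.46 (-0.56, and -0.30 by its other probe). Fzd3 was not well above background in either pool.

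Within the R-spondin group of 9 genes, 4 were above background. Rspo3, the ligand that enhances Wnt signals by binding Lgr receptors, had the largest difference of the members measured in both pools: 34.3 intensity units in the fast pool and 2914 in the slow pool, or log2 levels of -2.41 and 3.89. The difference of 6.31, with a software error of 0.22, put 10 of the 12846 genes above it, and it ranged from 4.95 under normexp with the 75th percentile to 6.74 under spike-in scaling. The single Rspo3 probe was above background in both pools. Rspo1, Rspo2 and Rspo4 were above background in neither.

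Of the receptors for R-spondins, Lgr4 stood at -0.22 in fast and -0.57 in slow fibres, a difference of -0.35 (-0.23 by its other probe and 0.08 under spike-in scaling). Lgr5 and Lgr6 were not well above background in either pool. Of the ligases that R-spondins hold back, Znrf3 stood at -2.13 and -1.12, exactly at the edge of the size rule with a difference of 1.003, and its other probes gave 0.87 and, for another transcript, 0.09. Rnf43 was above background in fast fibres only, at 22.1 intensity units, and 2.54-fold above its dim slow value of 9.31 units. This is a measured difference with a software error of 0.417 and not a lower limit. Under normexp with quantile normalization the Rnf43 difference was -0.19. Lgr4 and Znrf3 were thus measured in both pools beside Rspo3, with differences of -0.35 and 1.003.

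The 10 secreted inhibitors divided, with 1 called in slow fibres, 4 in fast fibres, 1 measured and not called, and 4 not above background. Dkk2, a Dickkopf that binds Lrp5 and Lrp6, read 1.70 intensity units in the fast pool, not well above background, and 505.3 in the slow pool. The slow pool was thus at least 65.3-fold higher, and its bound stayed at or above 3.05 on the log2 scale over the 9 settings. Dkk1 and Dkk4 were not well above background in either pool.

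Dkk3, a divergent Dickkopf, went the other way, at 0.37 in the fast pool and -3.12 in the slow pool, 11.2-fold apart. Its other probe was above background in fast fibres only and gave a bound of -2.19. Wif1, which binds Wnt ligands directly, stood at -1.17 and -3.43, 4.78-fold higher in fast fibres, and Sfrp5 at -0.47 and -2.22, 3.36-fold higher. Frzb, also a secreted Frizzled-related protein, stood at 0.09 and -0.94, 2.04-fold higher in fast fibres, with -1.43 by its other probe and -0.60 under spike-in scaling. Under normexp with quantile normalization Wif1 was at -0.97 and Sfrp5 at -0.89. Sfrp4 stood at -2.78 and -2.15, a difference of 0.63 that was 1.06 under spike-in scaling. Sfrp1 and Sfrp2 were not well above background in either pool. The median of the 5 inhibitors measured in both pools was -1.75 and stayed below 0 in every setting, from -1.86 to -0.89, but it leaves out Dkk2.

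Axin2, a target of beta-catenin that feeds back on the pathway, stood at -3.25 in fast and -1.92 in slow fibres, 2.51-fold higher in slow fibres at 19.2 and 51.7 intensity units. Its other probe was above background in slow fibres only, with a bound of 0.78, and under normexp with the 75th percentile the difference was 0.46.

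Of 95 other genes of the pathway, 85 were above background in at least 1 pool, with 8 called in slow fibres, 14 in fast fibres and the remaining 63 in neither direction. The shares, 9.4% in slow and 16.5% in fast fibres, were near the 10.7% and 14.3% of all genes above background. Their median difference was -0.02 over the 75 measured in both pools. Wls, the carrier that brings Wnt proteins to the surface, was at 0.19 in fast and 1.19 in slow fibres (1.01, and 0.68 by its other probe), while Porcn, which attaches the lipid, was at -0.29 and Notum, which removes it, at -0.51. Kremen1, a receptor for Dickkopf proteins, stood at 2.003 and 4.94, 7.68-fold higher in slow fibres, with 2.32 and 3.56 by its other probes. Of the heparan sulfate proteoglycans, Gpc3 was 2.18-fold higher in fast fibres and Sdc1 was above background only there, by 2.83-fold or more. Another Sdc1 probe above background in fast fibres only gave a bound of -0.09. Of the inhibitors outside the member families, Shisa2, of a family that keeps Frizzleds from the surface, stood at 3.44 and -1.02, a difference of -4.46. Tmem88, which binds Dishevelled, was 3.32-fold and Shisa3 2.17-fold higher in fast fibres.

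Inside the cell, 20 of 25 genes of the destruction complex and cytoplasm above background were not called, including Ctnnb1, which encodes beta-catenin (-0.07). Ctnnbip1, which blocks beta-catenin from TCF factors, was 4.31-fold higher in fast fibres, Csnk1e, a casein kinase of the pathway, 3.09-fold and Dvl2, a Dishevelled, 2.21-fold, though other Csnk1e probes gave -0.84 and -0.34. Dact3, a Dishevelled antagonist, was 3.16-fold higher in slow fibres. Of 15 nuclear factors above background, Bcl9, a coactivator of beta-catenin, was above background in slow fibres only. There it was 15.0-fold above its dim fast value, with a bound of 1.27 by its other probe. Lef1 was higher in slow fibres by at least 2.36-fold. Tle3, a corepressor, was 2.83-fold higher in fast fibres and Tcf7l2 2.48-fold, and the other Tcf7l2 probes ran from -1.62 to -0.31. Of 15 planar polarity genes above background, Vangl2 was higher in slow fibres by at least 2.69-fold and Daam2 4.93-fold higher in fast fibres, with 13 not called. The other Daam2 probes were not well above background in either pool.

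Target genes of the pathway went both ways. Tbx3, a T-box factor, was 7.12-fold and Fst, which encodes follistatin, 3.47-fold higher in slow fibres. Ccnd2, a cyclin, was 3.09-fold higher in fast fibres and Twist1 at least 2.10-fold, and the remaining 5 of 9 above background were not called. Lef1, Vangl2, Dact3, Wls, Gpc3, Sdc1, Shisa3, Dvl2, Amer1 (-1.10), Tcf7l2, Daam2 and Twist1 fell within 2-fold under at least 1 of the 9 settings. None of the called pathway genes changed sign, while Ctnnb1 was at 0.36 and Porcn at 0.14 under spike-in scaling. Under spike-in scaling 18 of the 85 pathway genes were called in slow and 8 in fast fibres, and 3173 and 1303 of the 14644 genes above background.

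**Figure D3:**
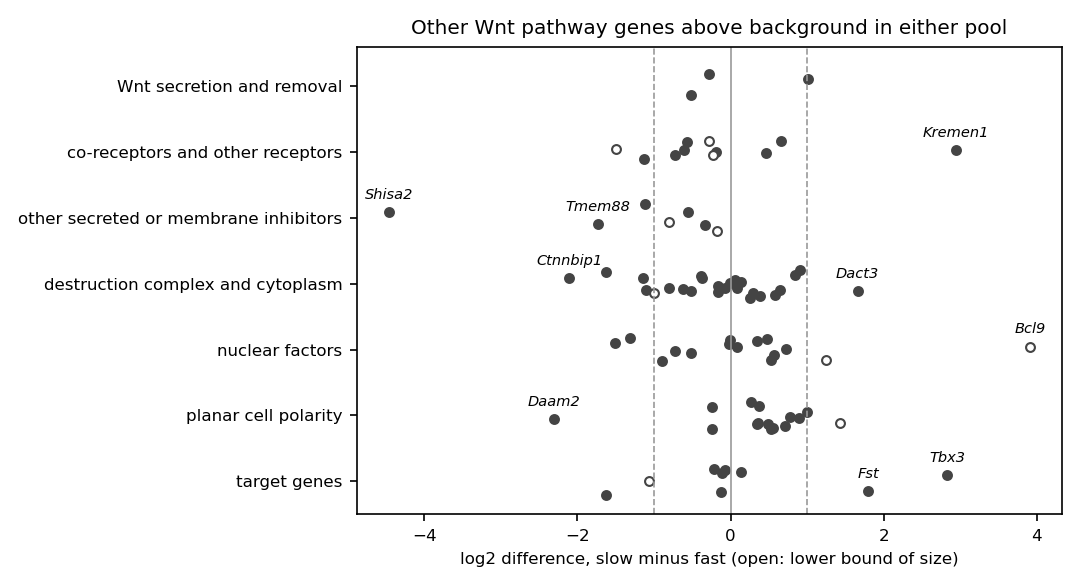
Log2 difference, slow minus fast, of the 85 other pathway genes above background in at least 1 pool, by role. Open points are genes above background in 1 pool only, dashed lines mark 2-fold, and the most distant genes are named. Kremen1 (2.94), Bcl9 (3.91 above its dim fast value) and Tbx3 (2.83) stand to the right, and Shisa2 (-4.46), Daam2 (-2.30) and Ctnnbip1 (-2.11) to the left.

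Beside the members called in fast fibres, many markers of other muscle cells also read higher in the fast pool. Of all genes above background, 14.3% were called in fast and 10.7% in slow fibres. Of endothelial markers 9 of 10 were called in fast fibres, with Cldn5 at -3.90, a median of -1.44 and a log2 summed level of 4.43 in fast and 2.40 in slow fibres. Of fibroblast markers 8 of 10 were called, with Col1a1 at -2.18, a median of -1.75 and summed levels of 7.29 and 5.27. Schwann cell markers had 5 of 7 called in fast fibres and 1 in slow fibres, with Prx at -1.99 and Mbp at 2.32, and summed levels of 2.35 and 1.04. Tendon markers had 3 of 6 called in fast fibres and Scx (2.05) in slow fibres, with a median of -1.19 and summed levels of 4.27 and 4.64. Smooth muscle and pericyte markers had 3 of 8 called in fast fibres and 1 in slow fibres, with a median of -0.78 and summed levels of 9.60 and 9.46. Their sums are nearly those of Acta2 alone (9.58 and 9.45). Immune markers had 2 of 7 called in fast fibres (4 above background), with summed levels of 4.03 and 2.22. Adipocyte markers had 1 of 5 called there (2 above background), with summed levels of 4.20 and 3.04. A sum is weighted to its brightest probes, and the adipocyte sum is nearly that of Fabp4 alone (4.17 and 2.97), while Lep was at 0.21. Of the immune markers Ptprc, Adgre1 and Cd79a, and of the adipocyte markers Adipoq, Plin1 and Cidec, were not well above background in either pool. Satellite cell markers had 2 of 7 called in fast fibres, Chodl (-2.01) and Vcam1 (-1.71), with summed levels of 3.75 and 4.05. Pax7 was at 0.60, and Myf5 and Calcr were above background in neither pool. Over the 9 settings the endothelial median ran from -1.55 to -0.91 and the fibroblast median from -1.86 to -1.32. The number called in fast fibres was 4 to 9 endothelial, 5 to 8 fibroblast, 2 to 5 Schwann cell and 2 to 3 tendon markers. It was 1 to 4 smooth muscle and pericyte, 0 to 2 satellite cell, 2 to 3 immune and 0 to 1 adipocyte markers. The part of these cells in the differences of Wnt4, Dkk3, Wif1, Sfrp5, Frzb, Fzd2, Fzd4 and Rnf43 was not tested, and in pooled RNA fewer cells of a type and less RNA per cell cannot be told apart. Of the markers of other cells, Scx, Mbp and Cspg4 (1.24) were called in slow fibres, and the tendon and satellite cell sums were higher there. These sums lean on single genes. The brightest tendon marker in slow fibres was Scx itself (4.22). The brightest satellite cell marker was Sdc4 (2.94 in fast and 3.41 in slow fibres), which is also among the other pathway genes. The part of other cells in the differences of Rspo3, Dkk2, Fzd9, Fzd10, Wnt5b, Fzd6, Znrf3 and Axin2 was not tested either.

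**Figure D4:**
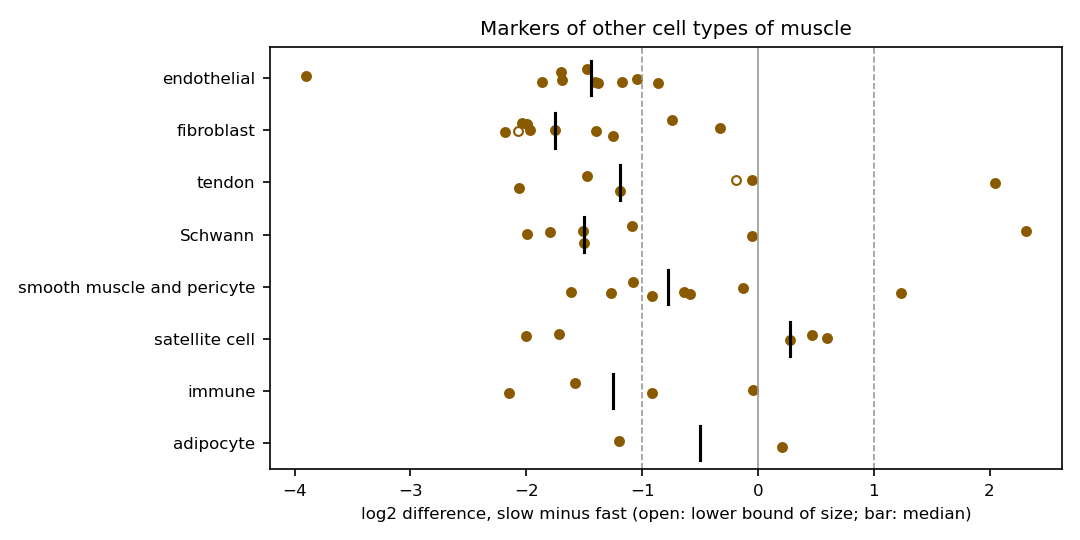
Log2 difference, slow minus fast, of markers of 8 other cell types. Open points are markers above background in 1 pool only, bars are the median of markers measured in both pools, and dashed lines mark 2-fold. Endothelial and fibroblast markers lie left of 0, with medians of -1.44 and -1.75, and satellite cell markers centre on 0.27.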

How the data were processed

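RNA of each pool was labelled with Cy3 from 0.1 µg and hybridised to 1 array, per the labels' protocols. The deposited scanner files hold linear spot intensities that the authors took with Agilent Feature Extraction 12.0.3.1, background-subtracted and detrended within the array and not normalized between arrays, per the file headers, which give the software version also named in the submitters' notes. The authors' deposited value table holds the same intensities times 2.83 (fast) and 2.45 (slow), with column medians of 30.1 and 27.1. Its values are linear and not centred, and the target of this scaling is unknown. Here, log2 intensities were first centred on the 75th percentile of each array over all non-control spots. Spots marked as outliers by the software on at least 1 array (159) were then dropped, and the centred values of 1 probe's spots were averaged.

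Probe accessions, without versions, were matched to RefSeq genes of GRCm38.p6 for names and gene order only, because the array design refers to mm9, and 33763 of 56596 probes matched. The brightest probe by mean intensity stood for a gene. A gene above background in 1 pool was given a bound against its dim value or, if higher, the dimmest reliable signal of the array (7.21 in fast, 8.81 in slow fibres). Where the dim value was the higher, as for Fzd6, Rnf43 and Bcl9, this is the measured difference and not a lower limit. Members above background are all named. Of each other list the text names the 3 highest and lowest past 2-fold at most, and of marker lists the 2 farthest from 0. Ctnnb1, Porcn, Notum, Amer1, Myh7, Pax7, Cspg4, Acta2 and Sdc4 were named after their values were seen. The members and lists were chosen with earlier results of these data known.

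The settings compared were the 75th percentile, the median, the 75th percentile over probes above background on both arrays, quantile normalization, loess with a span of 0.3, scaling to the 8 of 10 spike-in controls above background, normexp with an offset of 50 on median spot intensities with quantile normalization or the 75th percentile, and the authors' table. R 4.3.3 with limma 3.58.1 and Python 3.11.15 were used, and the gene table was tested on simulated arrays. No count or depth applies to arrays, and their number limits the precision.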

Additional observations from a re-analysis of the deposited data

How the results depend on the processing

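With 1 array per group no sample could be left out and no replicate spread exists, so the settings show processing alone. No paired analysis was possible because each group has 1 sample. Under the scaling, background and fold settings, counts are out of 30 members, 85 other pathway genes and 14644 genes above background. Of the 16 called members, 15 were past 2-fold the same way under the authors' table, median scaling, loess and the 75th percentile over probes above background on both arrays, 16 under quantile normalization, 13 under spike-in scaling, 7 under normexp with quantile normalization and 8 under normexp with the 75th percentile. Under spike-in scaling 5 members were higher in fast fibres and the member median was 0.15, the other pathway genes split into 18 slow and 8 fast with a median of 0.41, and all genes into 3173 slow and 1303 fast. Under normexp with quantile normalization 5 members were called in slow and 2 in fast fibres (median -0.09), 4 and 6 other pathway genes, and 768 and 1008 of all genes. Under normexp with the 75th percentile these were 5 and 3 members (median -0.14), 4 and 6 pathway genes, and 782 and 1004 genes. In the authors' table the medians were -0.39 for members and -0.13 for pathway genes, and under loess the latter was -0.14. With no filter on dim probes, counts are out of all 51 members, 95 other pathway genes and 23458 genes. Past 2-fold in slow and fast fibres were then 10 and 13 members, 8 and 21 pathway genes, and 2494 and 3102 genes. The medians were 0.13 for members and -0.07 for pathway genes. Genes above background on both arrays alone left 5 of 75 pathway genes in slow fibres, and 1214 of all 12846 such genes. A rule of 1.5-fold called 17 and 22 pathway genes and 3095 and 3393 of all genes in slow and fast fibres. A rule of 3-fold called 5 and 5 members, 5 and 6 pathway genes, and 776 and 1070 genes. The cause of each shift was not tested beyond what a setting changes by construction. Signal over background leaves only bounds for Wnt6 and Dkk2, and only differences from a dim value for Rnf43 and Fzd6.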
